A study of Danio rerio with 67 samples.

Results

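Translation initiation factors and elongation factors were described in single cells of the adult zebrafish spinal cord, as all 84 of 32266 counted genes whose Ensembl symbol begins with eif or eef and a digit, in either case. The symbols choose by name, so the 84 genes also hold regulators of the factors, such as the eIF4E-binding proteins, the kinases of eIF2 alpha and of eEF2, and methyltransferases of eEF1A. The study sorted olig2:eGFP+ cells, which its labels call oligodendrocyte progenitor cells (OPCs), and sequenced each cell by itself. The lesion group was 32 cells from Tg(olig2:eGFP) adults 7 days after the cord was cut across, and the sham group was 35 cells from Tg(olig2:eGFP) adults that had the same surgery with the cord left intact. The transgene puts green fluorescent protein, the label of the sort, under control of the gene olig2, which acts in oligodendrocyte and motor neuron progenitors. Each group came from 1 pool of 9 cords. There was therefore 1 sample a group, no test could be made, and all values describe these 2 pools. Cells were also divided at 10000 CPM (counts of a gene per 1000000 counts on all genes) of plp1b, which encodes the myelin proteolipid protein, into 17 plp1b-high and 15 plp1b-low cells in the lesion group and 29 plp1b-high and 6 plp1b-low cells in the sham group.

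Translation begins when eIF2 brings the initiator tRNA to the small ribosomal subunit, while eIF4F, made of the cap-binding eIF4E, the scaffold eIF4G and the helicase eIF4A, recruits the mRNA and eIF3 bridges both. After the start codon is found with eIF1, eIF1A and eIF5, the guanine nucleotide exchange factor eIF2B recharges eIF2 with GTP, and stress kinases slow this step by phosphorylating eIF2 alpha. In elongation, eEF1A delivers each aminoacyl-tRNA, eEF1B recharges eEF1A and eEF2 moves the ribosome along, and many of the mRNAs for these factors are themselves translated under control of the kinase complex mTORC1.

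The cells had 245408 to 771417 reads on genes, with a median of 431348 in lesion and 550763 in sham cells. The plp1b division fell in a wide gap: the nearest cells on either side were at 19557 and 614 CPM in the lesion group and at 28632 and 146 CPM in the sham group. The classes are ranges of 1 gene and not cell types. Against the label, plp1b-high cells carried oligodendrocyte markers. A list of 17, plp1b among them, summed to 165705 and 178866 CPM in lesion and sham plp1b-high cells, and to 2190 and 1481 CPM in lesion and sham plp1b-low cells. Of the plp1b-high sums, plp1b itself held 46809 and 47055 CPM, a part that the division fixed. In each group 15 of the 17 markers, plp1b among them, were higher in plp1b-high than in plp1b-low cells, and 2 were lower. OLIG2 itself was at 8461 and 8728 CPM in lesion and sham plp1b-high cells, and at 5750 and 4890 CPM in lesion and sham plp1b-low cells. Of 10 OPC markers with at least 5 CPM over all cells, OLIG2 among them, most were lower in plp1b-high than in plp1b-low cells. In lesion cells 7 were lower and 3 higher (median log2 ratio -2.93), and in sham cells 8 were lower and 2 higher (-1.96). Of all genes, 41.1% were higher in plp1b-high lesion cells and 53.5% in plp1b-high sham cells. SOX6 was at 0 and 0.186 CPM in lesion and sham plp1b-high cells, and at 98.1 and 383 CPM in lesion and sham plp1b-low cells. PTPRZ1 (ENSDARG00000020871) went the other way, at 944 and 687 CPM in lesion and sham plp1b-high cells and 76.1 and 195 CPM in plp1b-low cells. SOX10 was at 447 to 783 CPM in every class. GPR17 was detected in 3 cells, all plp1b-low, and PDGFRA had no read in any cell. All sham cells lay in plate columns 1 to 6 and all lesion cells in columns 7 to 12, so group, pool of fish and side of the plate cannot be told apart.

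Of the 84 genes, 82 had a read, and EIF4E1B and EIF2AK4 had none. At the level used for all ratios, at least 5 CPM over all cells, 75 were measured, and the other 9 are counted here but in no ratio. Only eef1a1l1 was detected (at 5 or more reads) in all 67 cells, and 19 genes were detected in at least 50% of cells. Among the symbols, 7 stand for 2 gene IDs each, which are told apart below by the ID, and reads of such near copies may be split or lost in counting. On the scale of CPM per kilobase of exon, which allows genes to be compared, 18 genes reached 100 and 43 lay under 50. The highest were eef1a1l1 at 1045, the start-codon factor EIF1 at 844, eef2b at 445, eif5a at 408, the eEF1B subunit EEF1G at 358 and EEF1A1 (ENSDARG00000039502) at 285 CPM per kilobase, over all cells. Most of the set was sparse: 13 of the 75 measured genes were detected in under 10 cells, and in 20 a single cell held over 25% of the reads, so single values of these rest on few cells.

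Summed over the 84 genes, lesion cells spent more of their reads on translation factors than sham cells in both plp1b classes, and most of this lay in the elongation factors. The sum was 20914 CPM in lesion cells and 12860 CPM in sham cells, 1.63-fold higher, with exact 95% Poisson intervals of 20838 to 20991 and 12809 to 12912 CPM that cover counting error only. This pooled ratio mixes levels with the makeup of the groups, since plp1b-low cells were 15 of 32 lesion but 6 of 35 sham cells. In CPM plp1b-low cells had more of these mRNAs than plp1b-high cells, but in sham cells this direction depended on the scaling. Weighting both groups to the class shares of the sham cells, an alternative chosen after seeing the data, gave a log2 ratio of 0.42 in place of 0.70.

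Within plp1b-high cells the lowest, median and highest cell had summed levels of 9869, 13859 and 25804 CPM in the lesion group, against 6798, 10804 and 16358 CPM in the sham group. The groups overlapped: 16 of 17 lesion cells were above the sham median and 5 were above every sham cell. The sums over cells were 15361 CPM in lesion and 11277 CPM in sham cells, 1.36-fold higher. Within plp1b-low cells the lowest, median and highest cell had 8373, 29850 and 44166 CPM in the lesion group, against 19712, 20193 and 27576 CPM in the sham group. Here 8 of 15 lesion cells lay above all 6 sham cells, and the sums, 27727 CPM in lesion and 22802 CPM in sham cells, differed 1.22-fold. Fewer cells with a transcript and less of it per cell cannot be told apart in such sums.

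The eEF genes summed to 7157 CPM in lesion and 4087 CPM in sham plp1b-high cells, 1.75-fold higher, and to 14092 CPM in lesion and 9880 CPM in sham plp1b-low cells, 1.43-fold higher. In plp1b-high cells 14 of 17 lesion cells were above the sham median and 5 above every sham cell, and in plp1b-low cells 12 of 15 lesion cells were above every sham cell. The eIF genes differed less: they summed to 8204 CPM in lesion and 7189 CPM in sham plp1b-high cells, 1.14-fold higher, and to 13636 CPM in lesion and 12921 CPM in sham plp1b-low cells, 1.06-fold higher. Leaving out sham cell 33 of the plp1b-low class turned the last ratio to a log2 of -0.01. Of the summed difference in plp1b-high cells, eef1a1l1 made up 59.5% and eef2b 22%, while EEF1A1 (ENSDARG00000039502) took away 14.5%. Without eef1a1l1, an omission chosen after seeing the data, the log2 ratio of the sums was 0.23 in place of 0.45 in plp1b-high cells.

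**Figure D1:**
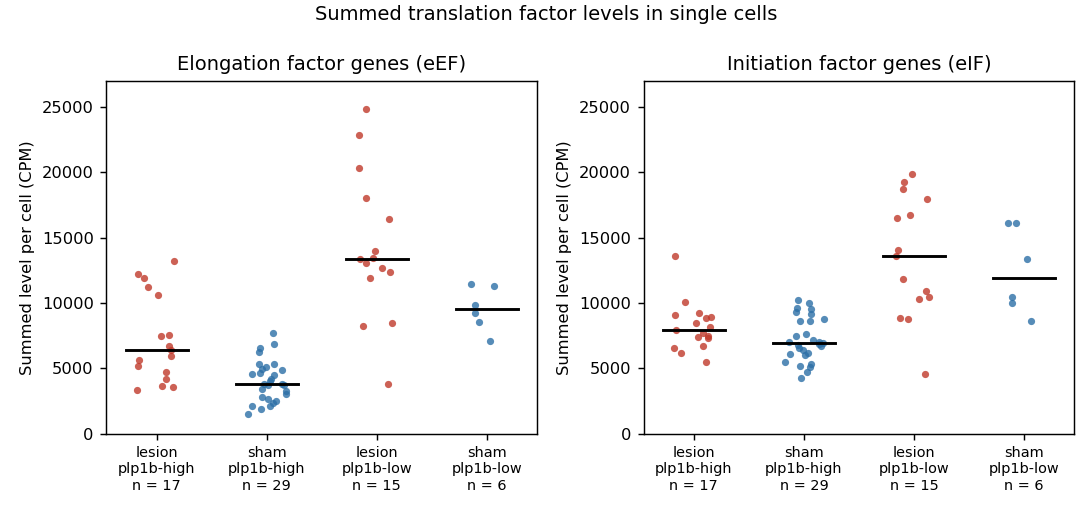
Summed level in CPM of the elongation factor genes (left) and the initiation factor genes (right) in each cell, with a point per cell in red for lesion and blue for sham cells and a line at the median of each plp1b class. The lesion cells are shifted up most for the elongation factors, where 12 of 15 plp1b-low lesion cells lie above all 6 sham cells. For the initiation factors the lesion and sham cells of each plp1b class overlap more.

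Gene by gene, the picture was less uniform than the sums. Over all cells 53 of the 75 measured genes (70.7%) were higher in lesion cells, against 52.6% of all 9783 genes at that level, and the median log2 ratio of lesion over sham was 0.67, against 0.10 over all genes. In plp1b-high cells 46 of 75 (61.3%, against 45.7% of all genes) were higher, with a median of 0.26 against -0.03. In plp1b-low cells 42 of 75 (56%, against 59.2% of all genes) were higher, with a median of 0.35 against 0.55. The counts by role below are to be read against these shares of all genes. The median was thus above that of all genes over all cells and in plp1b-high cells, and below it in plp1b-low cells. Leaving out lesion cell 7 took the median over all cells to 0.44, and leaving out sham cell 30 took that of plp1b-low cells to 0.67. Other scalings moved every gene of a comparison alike: TMM factors shifted the ratios of all genes by -0.25 over all cells, -0.17 in plp1b-high cells and 0.26 in plp1b-low cells, which leaves the distance between the set and all genes as it was.

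A ratio of at least 2-fold was common among all genes. Over all cells 25 of 75 genes (33.3%) lay at least 2-fold up in the lesion group and 10 (13.3%) at least 2-fold down, against 30.6% and 24.7% of all genes. In plp1b-high cells 22 (29.3%) lay this far up and 13 (17.3%) this far down, against 23.7% and 28.4% of all genes. In plp1b-low cells 27 (36%) lay this far up and 13 (17.3%) this far down, against 43.6% and 23.2% of all genes. The shares of genes at least 2-fold higher lay above those of all genes over all cells and in plp1b-high cells, and below in plp1b-low cells. Genes at least 2-fold lower were a smaller share of the set than of all genes in each of these comparisons. No gene of the set had per-cell values that separated the lesion from the sham cells without overlap, over all cells or in either class. Separation was not counted over all genes, so the set cannot be compared with them in this.

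The eEF1A genes, whose product carries aminoacyl-tRNAs to the ribosome, differed in opposite directions. The main gene, eef1a1l1 (ENSDARG00000020850, GRCz10 chromosome 19, 43523334 to 43539373), had a lowest, median and highest value of 870, 3519 and 7954 CPM in lesion plp1b-high cells, against 66.7, 1689 and 4438 CPM in sham plp1b-high cells. In 16 of 17 lesion cells it was above the sham median, and in 7 above every sham cell. Its sums were 4219 CPM (4173 to 4266) in lesion and 1789 CPM (1768 to 1809) in sham plp1b-high cells, a log2 ratio of 1.24, and leaving out any single cell kept the ratio between 1.15 and 1.31. In plp1b-low cells it had 1517, 6475 and 13764 CPM in the lesion group, against 2145, 3701 and 6749 CPM in the sham group. The sums there were 6659 CPM in lesion and 4174 CPM in sham cells, a log2 ratio of 0.67. Without sham cell 34 the ratio was 0.54, and without sham cell 30 it was 1.02.

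The second eEF1A gene, EEF1A1 (ENSDARG00000039502, GRCz10 chromosome 13, 27184333 to 27194327), was lower in lesion plp1b-high cells. Its lowest, median and highest values were 0, 5.12 and 695 CPM in lesion plp1b-high cells, against 0, 528 and 2050 CPM in sham plp1b-high cells. It was detected in 6 of 17 lesion cells (35.3%, exact Clopper-Pearson interval 14.2% to 61.7%) and in 23 of 29 sham cells (79.3%, 60.3% to 92.0%), and after thinning each cell to 301650 reads in 6 of 17 lesion and 21 of 26 sham cells. The sums were 177 CPM in lesion and 772 CPM in sham cells, a log2 ratio of -2.11, which stayed between -2.40 and -1.92 under all 13 alternatives of processing and omission. In plp1b-low cells the levels were closer and overlapped: 0, 342 and 4759 CPM in lesion cells, against 432, 1731 and 2871 CPM in sham cells. The sums were 1072 CPM in lesion and 1481 CPM in sham plp1b-low cells (log2 ratio -0.47). Lesion cell 16 held so much that without it the ratio was -1.01, and without sham cell 34 it was -0.15. Over 13 alternatives it ran from -1.07 to 0.40 and kept its direction in 12, so the direction was not stable.

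The makeup of the eEF1A transcripts therefore differed between the pools. Per kilobase, eef1a1l1 made up a median of 99.9% of the eEF1A level in lesion plp1b-high cells (range 60.0% to 100%), against 65.5% in sham plp1b-high cells (range 3.71% to 100%). EEF1A1 (ENSDARG00000039502) was the higher of both genes per kilobase in 0 of 17 lesion plp1b-high cells, which allows a share of up to 17.6%, and in 7 of 29 sham plp1b-high cells. In plp1b-low cells the median share of eef1a1l1 was 93.0% in lesion and 60.8% in sham cells, and EEF1A1 was the higher in 2 of 15 lesion and 2 of 6 sham cells.

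The third eEF1A gene, EEF1A1 (ENSDARG00000069951, GRCz10 chromosome 1, 30306886 to 30326291), was found in plp1b-low cells: it was detected in 3 of 15 lesion and 3 of 6 sham plp1b-low cells and in 0 of 46 plp1b-high cells, which allows a share of up to 6.52%. The 6 cells held 34 to 1234 CPM of it. They had a median of 5 detected neuron markers of 18 (range 2 to 6), against 2 (range 1 to 10) in the 15 plp1b-low cells without it. The same 6 cells also had 2 to 7 detected OPC markers of 15, and 3 to 6 of 16 markers of ependymo-radial glia. Those lists were not counted in the cells without it. The other eEF1A genes, eef1a1l3 and eef1a2, were below 5 CPM over all cells.

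**Figure D2:**
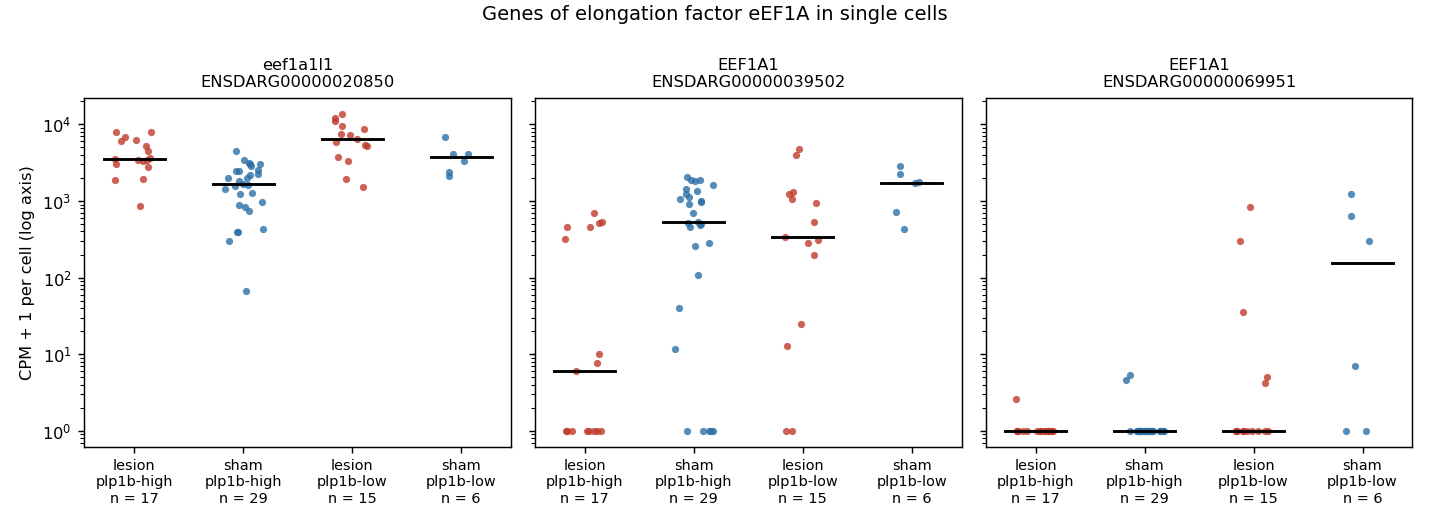
Level of 3 eEF1A genes in each cell, as CPM + 1 on a log axis, by group and plp1b class, with lesion in red, sham in blue and a line at the median. In plp1b-high cells eef1a1l1 is shifted up in lesion cells and EEF1A1 (ENSDARG00000039502) shifted down, with most lesion cells at or near 0, and EEF1A1 (ENSDARG00000069951) is near 0 outside the plp1b-low class.

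The eEF1B genes, which encode the exchange complex that recharges eEF1A, were higher in lesion cells for 4 of 4 members over all cells (median log2 ratio 1.35) and for 3 of 4 in plp1b-high cells (0.59). EEF1G, the gamma subunit, had a lowest, median and highest value of 0, 360 and 1098 CPM in lesion plp1b-high cells, against 0, 10.6 and 2087 CPM in sham plp1b-high cells. It was detected in 15 of 17 lesion and 14 of 29 sham cells. Its sums of 483 CPM in lesion and 252 CPM in sham cells gave a log2 ratio of 0.94. Without lesion cell 1 the ratio was 0.82, and without sham cell 13 it was 1.39. EEF1B2, the beta subunit, summed to 258 CPM in lesion and 191 CPM in sham plp1b-high cells, a log2 ratio of 0.43. In plp1b-low cells it summed to 1183 CPM in lesion and 597 CPM in sham cells, a log2 ratio of 0.98. The second ratio was 0.72 without sham cell 33 and 1.86 without sham cell 30. EEF1D, the delta subunit, was detected in 20 of 32 lesion and 4 of 35 sham cells. Over all cells its log2 ratio was 2.01, or 1.67 without lesion cell 10. It was 3.23 without sham cell 25, which held most of its sham reads. In plp1b-high cells the log2 ratio of EEF1D was 0.75, or 0.34 without lesion cell 17 and 2.34 without sham cell 25. The remaining gene, eef1da, was detected in 28 cells. It was the 1 gene lower in lesion plp1b-high cells, with a log2 ratio of -0.30.

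The eEF2 genes encode the translocase of elongation, and here too the copies differed. The main gene, eef2b (ENSDARG00000100371, GRCz10 chromosome 2, 56935780 to 56961732), had 2.11, 1076 and 3526 CPM as its lowest, median and highest values in lesion plp1b-high cells, against 0, 527 and 1484 CPM in sham plp1b-high cells. The groups overlapped, and the sums were 1487 CPM in lesion and 590 CPM in sham cells (log2 ratio 1.33, between 1.22 and 1.44 with any cell left out). In plp1b-low cells it summed to 2745 CPM in lesion and 1349 CPM in sham cells, a log2 ratio of 1.02, which was 0.82 without sham cell 30. EEF2 (ENSDARG00000035256), a lower copy, went the other way, with 169 CPM in lesion and 262 CPM in sham plp1b-high cells and 343 CPM in lesion and 691 CPM in sham plp1b-low cells. Its log2 ratios were -0.63 and -1.01, and lesion cell 5 held much of the second, which was -2.22 without it. Over 13 alternatives of processing and omission the second ratio ran from -2.22 to 0.32. The copy eef2a.1 was detected in only 10 cells, and its direction in plp1b-high cells rested on lesion cell 23, the cell nearest the plp1b division: the log2 ratio was 1.39 with it and -0.01 without it.

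Among the factors of start-site selection and subunit joining, 7 of 7 were higher in lesion cells over all cells (median log2 ratio 0.82), and 5 of 7 in plp1b-high cells (0.28). Their sum went the other way in plp1b-high cells, at 1524 CPM in lesion and 1789 CPM in sham cells (log2 ratio -0.23). In plp1b-low cells it was 3057 CPM in lesion and 2647 CPM in sham cells. Of the 7, EIF5 at 0.06 and EIF1 at 0.11 lay so near 0 over all cells that the TMM shift of -0.25 turns their direction. The most abundant, EIF1, which guards start-codon choice, differed little: its lowest, median and highest values were 0, 835 and 1917 CPM in lesion plp1b-high cells, against 278, 1135 and 2825 CPM in sham plp1b-high cells. The sums of 999 CPM in lesion and 1232 CPM in sham cells gave a log2 ratio of -0.30, and in plp1b-low cells they were 1853 CPM in lesion and 1557 CPM in sham cells. EIF5, which prompts GTP hydrolysis by eIF2, had 103 CPM in lesion and 258 CPM in sham plp1b-high cells (log2 ratio -1.32). It was nevertheless detected in 8 of 17 lesion and 11 of 29 sham cells. The ratio was -1.87 without lesion cell 1 and -1.02 without sham cell 25. Over 13 alternatives of processing and omission it ran from -2.65 to -0.53. The GTPase of subunit joining, eif5b, was at 44.6 CPM in lesion and 22.5 CPM in sham plp1b-high cells, where single cells decided the size. The log2 ratio was 0.96 with all cells, 3.22 without sham cell 23 and 0.60 without lesion cell 19.

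For eIF2, the carrier of the initiator tRNA, the subunits split in plp1b-high cells. EIF2S3B, the gamma subunit, was detected in 12 of 17 lesion and 6 of 29 sham plp1b-high cells and summed to 226 CPM in lesion and 90.8 CPM in sham cells (log2 ratio 1.31, or 0.79 without lesion cell 20 and 2.07 without sham cell 15). EIF2S2, the beta subunit, had a log2 ratio of 1.09, and both genes of the alpha subunit were lower, EIF2S1 (ENSDARG00000052178) at -1.06 and EIF2S1 (ENSDARG00000005827) at -3.05 in plp1b-high cells. These 3 genes are outside the naming rule and were chosen after their values were seen. EIF2S1 (ENSDARG00000005827) was detected in only 12 of 67 cells. In plp1b-low cells the 4 eIF2 genes had log2 ratios of -0.84 to 0.62, with 2 higher and 2 lower. Their sums there were close, 1081 CPM in lesion and 1052 CPM in sham cells.

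The 5 genes of eIF2B, which recharges eIF2, were each higher in lesion cells, over all cells (log2 ratios 0.80 to 1.36) and in plp1b-high cells (0.56 to 2.22, median 1.51). Together they summed to 298 CPM in lesion and 88.2 CPM in sham plp1b-high cells, and to 197 CPM in lesion and 242 CPM in sham plp1b-low cells, where 3 of 5 were higher. All 5 were sparse, being detected in 9 to 16 of 67 cells, and EIF2B4, the delta subunit, carried 170 of the 298 CPM. Without lesion cell 23 the ratio of EIF2B4 in plp1b-high cells was 1.45 in place of 2.22, and without sham cell 19 it was 3.23.

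The kinases of eIF2 alpha were barely detected at this depth. The heme-regulated kinase eif2ak1 was found in 2 lesion and 4 sham cells (log2 ratio -2.33 over all cells, or -1.52 without sham cell 10 and -3.41 without lesion cell 4). The endoplasmic reticulum stress kinase EIF2AK3 was found in 2 cells, 1 of each group, and leaving out sham cell 2 turned its ratio of -1.59 to 2.07. The double-stranded RNA kinase eif2ak2 was found in 2 cells and lay below 5 CPM over all cells.

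The eIF3 complex is the largest initiation factor, and 14 of its 16 measured genes were higher in lesion cells over all cells (median log2 ratio 0.71), 12 of 16 in plp1b-high cells (0.47) and 11 of 16 in plp1b-low cells (0.74), where 59.2% of all genes were higher and their median was 0.55. The sums were 2470 CPM in lesion and 1822 CPM in sham plp1b-high cells, and 3841 CPM in lesion and 3035 CPM in sham plp1b-low cells. Per kilobase its highest genes were EIF3F at 226, EIF3G at 201 and EIF3B (ENSDARG00000059654) at 154 CPM per kilobase over all cells. EIF3B, which scaffolds the complex, had 0, 331 and 1219 CPM as its lowest, median and highest values in lesion plp1b-high cells, against 0, 12 and 1195 CPM in sham plp1b-high cells. The sums, 385 CPM in lesion and 311 CPM in sham cells, gave a log2 ratio of 0.31, smaller than the gap between the medians. EIF3D, a subunit that can bind the cap, was close to equal in plp1b-high cells at 255 CPM in lesion and 266 CPM in sham cells. The subunit gene eif3ea was detected in 9 of 17 lesion and 6 of 29 sham plp1b-high cells, with sums of 169 and 66.0 CPM and a log2 ratio of 1.35.

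The genes of eIF4F and its helpers, which load the mRNA, showed no common direction: 10 of 17 measured genes were higher over all cells, 8 in plp1b-high and 8 in plp1b-low cells. The helicase gene eif4a1b had 0, 378 and 1602 CPM as its lowest, median and highest values in lesion plp1b-high cells, against 0, 0 and 831 CPM in sham plp1b-high cells. It was detected in 14 of 17 lesion and 9 of 29 sham cells, and the sums of 418 CPM in lesion and 162 CPM in sham cells gave a log2 ratio of 1.36. In plp1b-low cells it was near equal at 890 CPM in lesion and 955 CPM in sham cells. EIF4G2 (ENSDARG00000057167), a scaffold that lacks the cap-binding protein's site, was at 159 CPM in lesion and 218 CPM in sham plp1b-high cells. Over all cells its log2 ratio was 0.16. The other gene of that symbol, EIF4G2 (ENSDARG00000020377), is outside the naming rule. Over all cells it was at 49.2 CPM per kilobase in lesion and 20.3 CPM per kilobase in sham cells.

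Within the cap-binding eIF4E family, single members differed by more. The gene eif4e1c, a form found in fish, was detected in 9 of 17 lesion and 5 of 29 sham plp1b-high cells and summed to 195 CPM in lesion and 54.6 CPM in sham cells, a log2 ratio of 1.82 that stayed between 1.39 and 2.30 with any cell left out. Both eif4e1c and the related gene eif4e2rs1 were named for being among the 6 highest ratios in plp1b-high cells. That choice favours large differences in these cells, so their values are no separate support for a difference. In plp1b-high cells eif4e2rs1 was detected in 8 of 17 lesion (47.1%) and 1 of 29 sham cells (3.45%). It summed to 77.3 CPM in lesion and 5.63 CPM in sham cells, a log2 ratio of 3.56. The ratio was 3.11 without lesion cell 25 and 6.20 without sham cell 26. In plp1b-low cells eif4e2rs1 was in 5 of 15 lesion and 2 of 6 sham cells. EIF4E2, a cap-binding protein known for repression, was chosen after its values were seen. It was in 1 of 17 lesion and 6 of 29 sham plp1b-high cells, at 15.9 and 95.8 CPM, a log2 ratio of -2.52. The ratio was -2.06 without sham cell 17 and -5.81 without lesion cell 27. In the same cells EIF4E itself was close, at 103 CPM in lesion and 87 CPM in sham cells.

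The eIF4E-binding proteins hold eIF4E away from eIF4G until mTORC1 phosphorylates them. With the eIF4E transporter eif4enif1 they form a group of 5, of which 3 were lower in lesion cells over all cells (median log2 ratio -0.88) and 4 in plp1b-high cells (-0.57), with sums of 356 CPM in lesion and 588 CPM in sham plp1b-high cells. In plp1b-low cells 4 of 5 were higher in lesion cells (median 2.17), with sums that were close, 453 CPM in lesion and 427 CPM in sham cells. The exception was eif4ebp1, with a log2 ratio of -2.22 in plp1b-low cells, between -3.71 and -1.33 under 13 alternatives of processing and omission. The 6 sham cells limit all these ratios. The most abundant, eif4ebp1, had 0, 145 and 695 CPM as its lowest, median and highest values in lesion plp1b-high cells, against 0, 110 and 1371 CPM in sham plp1b-high cells. The sums of 190 CPM in lesion and 282 CPM in sham cells gave a log2 ratio of -0.57 although the lesion median was the higher. EIF4EBP3 (ENSDARG00000041607) was at 109 CPM in lesion and 157 CPM in sham plp1b-high cells, and in plp1b-low cells it was detected in 3 of 15 lesion cells, at 28.2 CPM over the class, with no read in the 6 sham cells, which allows a share of up to 50%. Its copy eif4ebp3 (ENSDARG00000054916) had no read in 17 lesion plp1b-high cells, which allows a share of up to 17.6% of cells, and was detected in 6 of 29 sham cells at 38.6 CPM over the class. By counting alone it was at least 96.8-fold lower, set against 3 reads over the lesion class, but most sham cells lacked it too.

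A further brake on eIF4A, PDCD4 (ENSDARG00000041022), comes from the list of termination and poly(A) binding genes and was chosen after its values were seen. It had 0, 2.2 and 665 CPM as its lowest, median and highest values in lesion plp1b-high cells, against 0, 170 and 1464 CPM in sham plp1b-high cells, and was detected in 6 of 17 lesion and 22 of 29 sham cells. The sums were 61.1 CPM in lesion and 370 CPM in sham plp1b-high cells. In plp1b-low cells the groups were closer, with 586 CPM in lesion and 740 CPM in sham cells.

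The eIF5A genes encode a factor that eases peptide bond formation and carries the amino acid hypusine. The main gene, eif5a, was near equal, with 427, 686 and 1974 CPM as its lowest, median and highest values in lesion plp1b-high cells, against 0, 552 and 2060 CPM in sham plp1b-high cells (sums of 854 and 751 CPM, log2 ratio 0.19). EIF5A2, its paralog, chosen after its values were seen, had 0, 441 and 1444 CPM in lesion plp1b-high cells, against 0, 1.67 and 1594 CPM in sham plp1b-high cells. It was detected in 13 of 17 lesion and 11 of 29 sham cells, with a log2 ratio of 1.11 that was 0.90 without lesion cell 21. In plp1b-low cells it was in 12 of 15 lesion cells at 452 CPM over the class, against no read in 6 sham cells, which allows a share of up to 50%. By counting alone that is at least 388-fold higher, set against 3 reads over the sham class, and it rests on those 6 cells.

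Of the remaining genes, EEF1E1 encodes a scaffold of the complex of aminoacyl-tRNA synthetases. It was detected in 8 of 17 lesion and 4 of 29 sham plp1b-high cells. It summed to 92.2 CPM in lesion and 21.3 CPM in sham cells, a log2 ratio of 2.06. Without lesion cell 25 the ratio was 1.58, and without sham cell 19 it was 3.49. Over 13 alternatives of processing and omission it ran from 0.0036 to 4.13. EIF4A3, a core protein of the exon junction complex, was near equal in plp1b-high cells at 102 CPM in lesion and 96.9 CPM in sham cells. In plp1b-low cells EIF4A3 was detected in 13 of 15 lesion and 1 of 6 sham cells. EEF2K, the kinase that halts eEF2, was detected in 14 cells and had a log2 ratio of 0.71 in plp1b-high and -0.61 in plp1b-low cells.

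**Figure D3:**
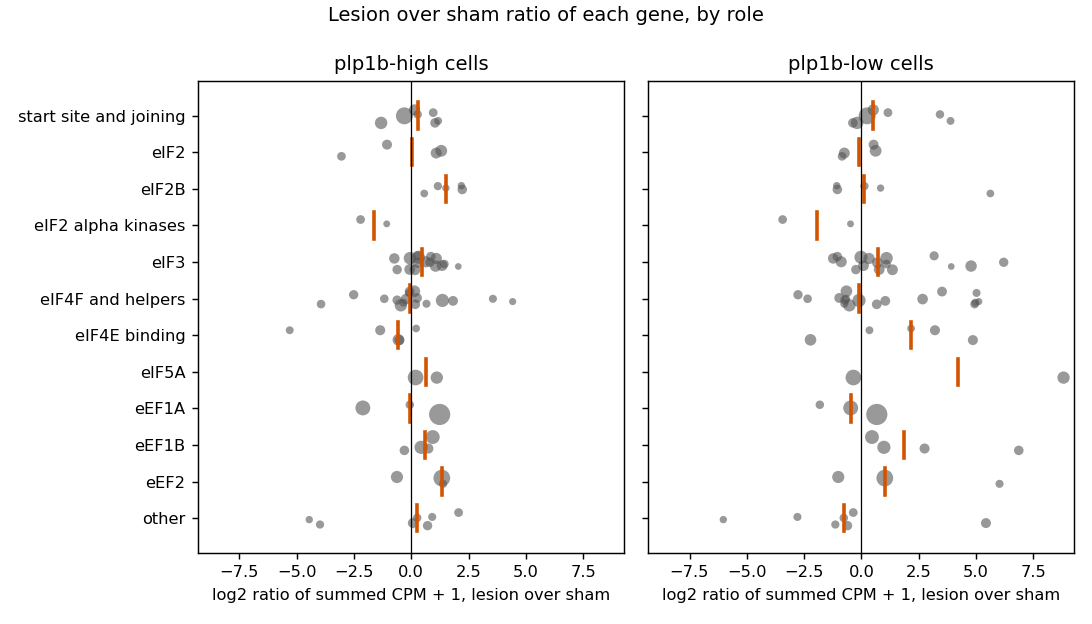
Log2 ratio of lesion over sham of each measured gene by its role, in plp1b-high cells (left) and plp1b-low cells (right), from summed CPM with 1 CPM added. Each point is 1 gene, larger for a higher level over all cells, and the orange bar is the median of the role. In plp1b-high cells all eIF2B genes lie right of 0 and the eIF4E-binding genes mostly left of it, and ratios past 5 in plp1b-low cells belong to genes with few or no reads in the 6 sham cells.

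Set against plp1b-low cells of the same pool, plp1b-high cells had lower levels of these mRNAs in CPM. The summed level was 15361 CPM in plp1b-high and 27727 CPM in plp1b-low lesion cells, 1.81-fold lower, and 11277 CPM in plp1b-high and 22802 CPM in plp1b-low sham cells, 2.02-fold lower, where the highest plp1b-high cell (16358 CPM) was under the lowest plp1b-low cell (19712 CPM). The makeup of the libraries also differed between the classes, and its part in this contrast was not tested: the 10 genes with the most reads took 21.6% and 23.5% of reads in lesion and sham plp1b-high cells, and 8.19% and 10.6% in lesion and sham plp1b-low cells. Scaled with TMM factors, which shift all genes of the contrast by 0.47 in lesion and 1.07 in sham cells, the log2 ratio of the sums was -0.38 in lesion and 0.06 in sham cells, so in sham cells its direction depended on the scaling. Gene by gene, 18 of 75 (24%, against 41.1% of all genes) were higher in plp1b-high lesion cells, with a median log2 ratio of -0.70 against -0.41 over all genes, and 28 of 75 (37.3%, against 53.5%) in plp1b-high sham cells, with -0.61 against 0.17. At least 2-fold higher were 9 of 75 genes (12%, against 26.8% of all genes) and at least 2-fold lower 30 (40%, against 40.7%) in lesion cells, and in sham cells 19 (25.3%, against 41.9%) and 33 (44%, against 31.2%). No gene of the set separated the classes without overlap in either group, which again was not counted over all genes.

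The median number of translation factor genes detected in a cell was higher in the lesion group, with ranges that overlapped. It was 30 genes (range 8 to 51) in lesion and 18 (6 to 32) in sham plp1b-high cells, and 42 (13 to 54) in lesion and 28.5 (25 to 37) in sham plp1b-low cells. After thinning all cells to 301650 reads, which left out 7 shallower cells, the medians were 29 in lesion and 18 in sham plp1b-high cells, and 38.5 in lesion and 29 in sham plp1b-low cells. The number of all detected genes at that depth also had higher medians in lesion cells, with ranges that overlapped. It was 2203 (614 to 3798) in lesion and 1404 (817 to 2270) in sham plp1b-high cells. In plp1b-low cells it was 2537.5 (909 to 3598) in lesion and 1850 (1675 to 2712) in sham cells. As a share of all detected genes the set made up a median of 1.34% in lesion and 1.24% in sham plp1b-high cells, and 1.54% in lesion and 1.36% in sham plp1b-low cells, with ranges that overlapped.

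**Figure D4:**
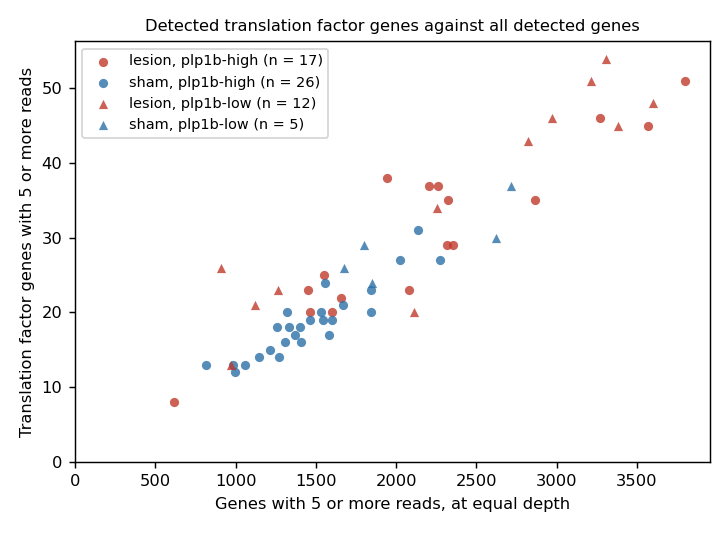
Number of translation factor genes with 5 or more reads in each cell against the number of all genes with 5 or more reads, after thinning each cell to 301650 reads. Circles are plp1b-high and triangles plp1b-low cells, red for lesion and blue for sham, and the cells of both groups lie along 1 band, with lesion cells reaching further along it.

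Neighbouring parts of the translation machinery were read from lists of genes that are no members, against 45.7% of all genes higher in plp1b-high cells (median log2 ratio -0.03) and 59.2% in plp1b-low cells (0.55). Ribosomal protein genes were higher in lesion cells for 66 of 82 in plp1b-high cells (median log2 ratio 0.37) and 73 of 82 in plp1b-low cells (0.51), with sums of 32906 CPM in lesion and 24291 CPM in sham plp1b-high cells. The synthetases that charge tRNAs were higher for 15 of 19 in plp1b-high cells (median 1.12), with sums of 1278 CPM in lesion and 693 CPM in sham cells, and for 10 of 19 in plp1b-low cells (0.34). In plp1b-low cells the medians of both lists were thus below that of all genes. Of 7 measured genes of the integrated stress response, the program downstream of eIF2 alpha phosphorylation, 4 were higher in plp1b-high cells (0.31) and 5 in plp1b-low cells (0.65). Its regulator atf4b was at 1280 CPM in lesion and 784 CPM in sham plp1b-high cells, while DDIT3, a stress-induced transcription factor, was at 304 CPM in lesion and 612 CPM in sham plp1b-high cells.

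The mTORC1 list mixes parts of the complex with its activators, inhibitors and targets, so its median gives no direction for the complex. The 10 measured genes had a median log2 ratio of 0.30 in plp1b-high and 0.24 in plp1b-low cells, with 6 higher and 4 lower in each. The list summed to 540 CPM in lesion and 595 CPM in sham plp1b-high cells. MTOR itself had a log2 ratio of -1.36 in plp1b-high and 0.82 in plp1b-low cells. Of 10 genes of termination and poly(A) binding, 2 were higher in plp1b-high cells (median -0.66) and 4 in plp1b-low cells (-0.31). The poly(A)-binding gene pabpc1a was at 634 CPM in lesion and 337 CPM in sham plp1b-high cells. Its copy pabpc1b went the other way, at 316 CPM in lesion and 377 CPM in sham plp1b-high cells. Of 4 genes of mitochondrial elongation and initiation, 2 were higher in each class, with medians of -1.11 and 1.42. Across cells the summed level of the set followed that of ribosomal proteins in plp1b-low lesion cells (Pearson r = 0.78, Spearman rho = 0.67, n = 15). The same held in the few plp1b-low sham cells (r = 0.97, rho = 0.66, n = 6). It did so less in plp1b-high cells (r = 0.29, n = 17 lesion, and r = 0.31, n = 29 sham). These values describe cells that share a pool and whose 2 sums share a total.

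Other cell types could add their own transcripts, and their part in these results was not tested. In plp1b-low cells, 18 neuron markers summed to 2244 CPM in lesion and 1630 CPM in sham cells (per-cell ranges 76.4 to 9921 and 152 to 3456 CPM), and 16 markers of ependymo-radial glia to 9560 CPM in lesion and 7604 CPM in sham cells (ranges 2210 to 33339 and 3962 to 11839 CPM). Both sums were lower in plp1b-high cells, with 301 CPM in lesion and 374 CPM in sham cells for neuron markers, and 1841 CPM in lesion and 1363 CPM in sham cells for markers of ependymo-radial glia. The gene FABP7 (ENSDARG00000007697) held 5032 and 4960 CPM of the glia sums in lesion and sham plp1b-low cells. Of 12 measured glia markers, 3 were higher and 9 lower in plp1b-high lesion cells. In plp1b-high sham cells 5 were higher and 6 lower. The 13 markers of microglia and macrophages summed to 30.7 CPM in lesion and 10.8 CPM in sham plp1b-high cells, with 11 and 8 of them at 0, and to 0.163 and 0 CPM in lesion and sham plp1b-low cells. The lists for endothelium, fibroblasts, lymphocytes, neutrophils and skeletal muscle each summed to under 80 CPM in every class, and that for pericytes to 172 CPM in lesion and 118 CPM in sham plp1b-high cells and to 264 CPM in lesion and 5.44 CPM in sham plp1b-low cells. The erythrocyte list was at 439 CPM in lesion and 1399 CPM in sham plp1b-high cells, of which the carbonic anhydrase gene cahz held nearly all with the globin genes at 0. Of the Schwann cell markers, prx had no read in any cell and EGR2 none in any plp1b-high cell, PMP22 was at 13.7 CPM in lesion and 0.0619 CPM in sham plp1b-high cells, and erbb3b at 99.6 CPM in lesion and 190 CPM in sham plp1b-high cells.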

How the data were processed

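The values used are raw counts, deposited by the authors as a single table of genes by cells. Per the submitters' processing notes, the tools were bcl2fastq 2.19.1, GSNAP on GRCz10 and featureCounts 1.6.2, where the file header has featureCounts 1.6.3. Per the file headers, Ensembl release 87 genes were counted without strand and with a mapping quality of at least 1, so a gene and its antisense partner are not separated and near-identical copies may lose reads. The library kit is not given in the sources used here, and gene names came from a separate table that gives many genes the human spelling. Coordinates are on GRCz10, counted from 1.

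Counts were summed over the cells of a class and scaled to all gene counts as CPM, without the 92 spike-ins, which had 71 reads in all. All 67 cells had at least 10000 reads and 500 genes, and doublets were not called, given the few cells. The ratio is log2 of lesion over sham, or of plp1b-high over plp1b-low, after adding 1 CPM to each, and folds of genes include this addition. Each group was 1 sample, so no p-value was computed, intervals cover counting error only, and "at least 2-fold" marks size alone. The calculation of the ratios was tested on simulated data. The named genes were the 12 most abundant, the 6 highest and 6 lowest ratios over all cells and in plp1b-high cells (at least 20 CPM, with detection in 40% or more of cells in the higher group), and every gene of eEF1A, eEF2, the eIF4E-binding proteins and the eIF2 alpha kinases, 29 in all. Genes named for the highest or lowest ratios owe the size of these ratios in part to that choice. The genes, roles, lists and rules were chosen with earlier results of these data known. Of 190 symbols on the lists, 16 had no match, and the sum of the Schwann cell list is not reported here. Alternatives were TMM factors (edgeR 4.0.16), DESeq2 1.42.0 size factors, other priors, no filter, mean per-cell CPM, single cells left out, plate rows, cells of over 5000 genes left out, other plp1b divisions, and detection minimums and thinning. Weighting by class and the omission of eef1a1l1 were chosen after seeing the data. Python 3.11.15 and R 4.3.3 were used.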

Additional observations from a re-analysis of the deposited data

Results flagged for a closer look

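For 3 genes the ratio of lesion over sham was at least 2-fold in opposite directions in the plp1b classes. The difference between the classes was not tested, since each class of each group comes from 1 pool. EIF4EBP2, which holds eIF4E, had a log2 ratio of -1.36 in plp1b-high cells (detected in 2 of 17 lesion and 5 of 29 sham cells) and 3.21 in plp1b-low cells (12 of 15 lesion and 1 of 6 sham cells). Without lesion cell 19 the ratio in plp1b-high cells was -2.71, and without sham cell 19 it was -0.86. In plp1b-low cells the ratio was 8.14 without sham cell 31. Over 13 alternatives of processing and omission it ran there from 1.33 to 8.42. EIF2B4, a subunit of the exchange factor of eIF2, had 2.22 in plp1b-high cells (6 of 17 lesion and 3 of 29 sham cells) and -1.05 in plp1b-low cells (5 of 15 lesion and 2 of 6 sham cells), and without sham cell 30 the second ratio was 0.46. EIF4B, a helper of eIF4A, had -3.94 in plp1b-high cells (1 of 17 lesion and 5 of 29 sham cells) and 4.94 in plp1b-low cells (3 of 15 lesion and 0 of 6 sham cells, which allows a share of up to 50%). EIF2B4 and EIF4B are outside the naming rule and were chosen for these values.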

How the results depend on the processing

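Values here are log2 ratios, that of the summed level first and the median over genes second, and the cause of their differences was not tested. Lesion over sham in all cells was 0.70 and 0.67 as reported, 0.45 and 0.42 under TMM scaling, 0.39 and 0.36 under that of DESeq2, 0.74 and 0.75 without the highest cell of each gene, 0.77 and 0.53 from plate rows B to E alone, 0.63 and 0.36 from F to H alone, and 0.42 and 0.24 weighted to the sham class shares. The sum was 0.66 without cells of over 5000 genes and 0.54 without eef1a1l1, and single cells left out gave 0.66 to 0.76 for the sum and 0.44 to 0.69 for the median.

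In plp1b-high cells the sum (0.45) was 0.28 under TMM scaling, 0.34 under that of DESeq2, 0.48 without the highest cells, 0.33 from rows B to E, 0.48 from rows F to H, 0.40 without cells of over 5000 genes, 0.47 divided at 20000 CPM, 0.23 without eef1a1l1 and 0.38 to 0.49 with single cells left out. In plp1b-low cells the sum (0.28) was 0.54 under either scaling, 0.33 as mean per-cell CPM, 0.54 without the highest cells, 0.20 from rows B to E, 0.42 from rows F to H, 0.26 without cells of over 5000 genes, 0.22 divided at 20000 CPM, 0.18 without eef1a1l1 and 0.23 to 0.39 with single cells left out, and the median was 1.62 without the highest cells, an omission that takes 1 of only 6 sham cells from each gene.

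For plp1b-high over plp1b-low lesion cells the sum (-0.85) and median (-0.70) were -0.38 and -0.26 under TMM scaling, -0.46 and -0.34 under that of DESeq2, -0.98 for both from rows B to E, and -0.84 and -0.24 from rows F to H. The sum was -0.81 without the highest cells, -0.87 without cells of over 5000 genes, -0.76 divided at 20000 CPM, -0.92 without eef1a1l1 and -0.93 to -0.80 with single cells left out. In sham cells the direction did not hold: the median (-0.61) was 0.24 under TMM scaling, 0.23 under that of DESeq2, 0.14 without the highest cells, 0.34 in rows F to H and -0.93 to -0.39 with single cells left out. The sum (-1.02) was 0.058 under TMM scaling, -0.0055 under that of DESeq2, -0.97 as mean per-cell CPM, -0.74 without the highest cells, -1.12 from rows B to E, -0.90 from rows F to H, -0.97 without eef1a1l1 and -1.06 to -0.91 with single cells left out. There the summed eIF genes were 0.23 by TMM and 0.16 by DESeq2 scaling.

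Of 57 single-gene results of at least 2-fold, 11 turned direction in 1 or more alternatives, as did 24 of 42 under 2-fold, which are not listed. The 11 turned in plate rows F to H for eif5b (-0.45 in all and -0.53 in plp1b-low cells), eef2a.1 (-0.89 in all and -1.90 in plp1b-high cells), EIF4B (0.17 in plp1b-high cells), EEF2 (0.32), EEF1A1 ENSDARG00000069951 (0.88) and EIF2B4 (2.67) in plp1b-low cells. In rows B to E they turned for EEF1E1 (-0.49 in all cells) and EIF2AK3 (2.82 in all and 4.12 in plp1b-high cells), and divided at 20000 CPM for eef2a.1 (-0.0051 in plp1b-high cells) and EIF2B4 (0.035 in plp1b-low cells). With single cells left out, EIF2AK3 ran from -3.74 to 2.07 in all and from -3.93 to 2.86 in plp1b-high cells, eef2a.1 from -0.0051 to 3.68 in plp1b-high cells, EIF2B4 from -1.91 to 0.46 and the summed eIF genes from -0.015 to 0.21 in plp1b-low cells.

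The medians in plp1b-high cells under every alternative, and those of each comparison at other priors or without the filter, kept their direction. They stayed within the median bounds of the single genes' counting intervals, which are not the counting error of a median. In plp1b-high cells the medians ran from 0.09 to 0.37, within bounds of 0.05 to 0.46. A division at 5000 CPM gives the same classes and so tests nothing. The detection counts moved by less than the spread between cells. No paired analysis was possible because replicate numbers only name the cells. Genes at 0 in a class had 1 in all, 2 in plp1b-high and 12 in plp1b-low comparisons of lesion with sham, and setting them at their bounds left the medians as they were. The 6 sham plp1b-low cells limit the values of that class, and the single pool a group limits all.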
